A study of Gallus gallus with 2 samples.

Results

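Long non-coding RNAs (lncRNAs) of chicken breast muscle were listed one by one, and some of them crowd together on the genome. The dense clusters described here were formed from the positions alone. Transcripts were ordered along each chromosome and joined while the next one started less than 5000 bases past the farthest end reached so far, and a chain of 15 or more transcripts was called a cluster. This gave 146 clusters with 3931 transcripts, 17.9% of the 21993 listed, out of 8415 chains of any size. No measured value entered this choice.

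The RNA came from breast muscle of hens aged 7 weeks of 2 chicken strains, White Recessive Rock (WRR), which the labels call fast-growing, and Xing Hua (XH), a native Chinese one called slow-growing, kept on the same feed in separate cages. Birds of average body weight for their strain were chosen. RNA of 4 birds per strain was pooled in equal amounts and stripped of ribosomal RNA, and 1 strand-marked library was made per strain. With 1 pooled library each, no spread between birds can be estimated and no test was made, so every difference below is one between 2 libraries. The labels name no transgene, treatment or other manipulation.

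A lncRNA is a transcript above a set length with no recognised protein product. Many are transcribed at low levels, stay in the nucleus, or are read from introns, from the strand opposite a gene or from the sequence beyond a gene's end. In skeletal muscle some are known as regulators of myoblast differentiation and of fibre type, but most have no known role. Removing ribosomal RNA, in place of selecting poly(A) tails, keeps unspliced and untailed RNA in the library, so that a single long primary transcript can appear as a row of separate pieces. Whether neighbouring transcripts of a cluster are pieces of 1 RNA was not tested here.

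The listed transcripts drew 1846031 reads in WRR and 1883727 reads in XH, 19.5% of the WRR library total in the file headers and 24.4% of the XH one. The clusters held 172124 of these reads in WRR (1.82% of the total) and 257716 in XH (3.34%). Levels are given as RPKM, reads per kilobase of transcript, scaled to that total, which allows levels of transcripts of different length to be compared. Names of genes are not paired with the transcripts, and the gene table at hand is of another genome build than the positions (galGal4), so no neighbouring gene was assigned and the tissue could not be checked against muscle markers. In bulk RNA such as this, fewer cells of a type and less RNA per cell cannot be told apart.

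The clusters were of very different size. They held 15 to 116 transcripts with a median of 21, and 61 of them held 15 to 19 transcripts, while 13 held 50 or more. Their spans ran from 14.2 to 708 kb with a median of 42.4 kb, and together they took up 9.27 Mb of the genome. Within the median cluster, the intervals from start to end of the transcripts covered 65.7% of the span, any gaps inside a transcript included. In 571 of 3785 pairs of successive transcripts (15.1%), the second started before the farthest end reached so far in the chain. Such a pair need not overlap each other, since an earlier long interval can reach past both. In the other pairs the second started a median of 362 bases past that end.

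Clusters were found on 22 chromosomes. Chromosome 3 had 33 of them, chromosome 1 had 29 and chromosome 2 had 23. Per 10 Mb of chromosome, chromosome 3 had 2.99 clusters, against 1.49 on chromosome 1 and 1.55 on chromosome 2. Chromosome 10, a much smaller chromosome, had 4.02 per 10 Mb, and 37.6% of its listed transcripts lay in its 8 clusters. The single W cluster gave that chromosome a rate of 8.01 per 10 Mb, which rests on 1 entry. This entry, a transcript of 2474 bases whose interval runs from 205051 to 913421 on chromosome W, spans all 708 kb and the other 14 transcripts. The chromosome 12 cluster at 2.32 Mb is likewise held together by intervals of 410 and 408 kb. Long intervals also lie in the chromosome 2 clusters at 53.04 Mb (264999 bases) and 58.67 Mb (245422 bases) and in the chromosome 15 cluster at 1.64 Mb (160888 bases). Such gapped entries, with an interval longer than the transcript, were few by number in the clusters, 59 members or 1.50%, against 4.84% of all transcripts. With gapped transcripts left out before chaining, the rule gave 3715 members in 139 clusters.

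Some clusters lie next to each other. In 11 cases the next cluster began within 20 kb, and on chromosome 10 a run of 3 clusters with 86, 19 and 51 transcripts reached from 4186538 to 4510476. The clusters of this run had ratios of summed reads per total, WRR over XH, of 0.422 (exact 95% interval 0.407 to 0.436), 0.420 (0.366 to 0.482) and 0.748 (0.700 to 0.798). By summed reads the third cluster as a whole thus stood apart from the other two beyond counting error, but not along its full length. Its 25 transcripts of lower coordinates had a ratio of 0.438 (0.387 to 0.495), near the other clusters. Its 26 of higher coordinates had 0.947 (0.875 to 1.02). Intervals of this kind hold the error of counting alone. Birds, pooling and library making add to it, and reads were not tied to single molecules by identifiers. The picture was another one with log2 ratios centred by numbering series, which are explained below. The centred medians of the 3 clusters were -0.70, -0.037 and -0.046, so the first stood apart. The parts of the third had centred medians of -0.13 and 0.083.

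Members were transcripts of low abundance, as the listed transcripts were as a whole. Their median RPKM was 2.61 in WRR and 4.92 in XH, where all listed transcripts had 2.65 in WRR and 4.48 in XH. At least 10 RPKM was reached by 229 members (5.83%) in WRR and 727 (18.5%) in XH, where all transcripts had 11.2% in WRR and 20.7% in XH. At least 100 RPKM was reached by 2 of the 3931 members in WRR and 3 in XH, where 135 of all 21993 transcripts reached it in WRR and 143 in XH. The median levels were thus near those of all transcripts, while strong transcripts were rarer in the clusters. Members had a median length of 912 bases, against 844 over all transcripts, and reads covered a median of 78.0% of a member's length in WRR and 90.8% in XH.

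The 4 members of highest RPKM in XH lay on chromosomes 6, 1 and 3. The 690-base transcript on chromosome 6 (1985064 to 1985753) had 246 RPKM in WRR against 351 RPKM in XH, giving a ratio of 0.700 (exact 95% interval 0.654 to 0.749). Its neighbour, 247 bases at 1985875 to 1986121, had 106 RPKM in WRR against 340 RPKM in XH, giving a ratio of 0.313 (0.269 to 0.363). The pair lie next to each other, and their ratios differ beyond counting error. The other 26 transcripts of that cluster lay between 0.271 and 7.42 RPKM in WRR and between 0.375 and 8.40 RPKM in XH. On chromosome 1 a 784-base gapped transcript at 105226728 to 105230760 had 98.9 RPKM in WRR against 184 RPKM in XH, while the cluster around it, of 17 transcripts, had a median of 1.22 RPKM in WRR against 4.31 RPKM in XH. The 648-base transcript on chromosome 3 (57080321 to 57080968) had 13.7 RPKM in WRR against 87.8 RPKM in XH, which is 6.40 times as much in XH (5.06 to 8.18). The next in XH, on chromosome 3 at 50571995, had 20.9 RPKM in WRR against 58.2 RPKM in XH, and its cluster at 50.54 Mb had the highest median level of all clusters, 20.1 RPKM in WRR and 35.9 RPKM in XH.

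Directions were counted on the scale log2((WRR + 0.1) / (XH + 0.1)) of RPKM, on which a positive value means higher in WRR and which understates the difference of low transcripts. The filter of at least 0.5 RPKM in the higher library was passed by 3852 members, and 79 did not pass it. A 2-fold excess in WRR was seen for 200 of the 3852 (5.19%), where the share over all 21625 transcripts past the filter was 9.45%. At least 2-fold higher in XH were 1930 (50.1%), where the share over all transcripts was 46.9%, and 1722 lay within 2-fold. The share higher in XH is thus near the background, and that higher in WRR is below it. The median log2 ratio of the members was -1.01 (95% interval from order statistics -1.05 to -0.97), beside -0.92 over all transcripts and -0.89 over those outside the clusters. That interval treats members as independent draws, which neighbours in a cluster are not. It holds no error of birds or libraries, so it cannot tell whether the members differ from all transcripts.

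The share higher in WRR was smaller in the longer chains. It was 14.5% for single transcripts, 10.3% for chains of 2 to 4, 7.27% for chains of 5 to 14 and 5.19% for the clusters, and the medians of log2 ratios ran -0.76, -0.88, -0.97 and -1.01 in the same order. Among the clusters themselves no such order was seen. In clusters of 15 to 19, 20 to 29, 30 to 49 and 50 or more transcripts the share was 5.68%, 4.79%, 5.26% and 5.07%. The medians were -1.04, -1.07, -0.91 and -1.01. The number of transcripts also had little relation to the ratio of summed reads, another measure, with Pearson's r of 0.048 and Spearman's rho of 0.037 over 146 clusters. Chains just inside and just outside the limit differed little. The 15 chains of 15 transcripts had a ratio of summed reads of 0.517, and the 22 chains of 14 transcripts had 0.532.

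These directions rest on the library totals as the scale. Relative to the median of all transcripts, 611 members (15.9%) were at least 2-fold higher in WRR, beside 22.3% of all transcripts, and 765 (19.9%) in XH, beside 20.3%. The split of members past 2-fold was thus far less one-sided, and the median of the members relative to all transcripts was -0.091. What remains on either scale is a smaller share of members at least 2-fold higher in WRR than among all transcripts.

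A feature that the rule did not use moved strongly with the ratio. Transcript identifiers are serial numbers, and their order through the chromosomes splits them into series A (numbers below 3659), series B (from 3659 and below 11942) and series C (from 11942 on). The sources used here do not say what the series stand for. They may follow the library from which a transcript was assembled, in which case part of each ratio would come with the way transcripts were listed. This was not tested, and it bears on every ratio, direction count and comparison of series given here. Of the members, 775 (19.7%) belonged to series A, 1095 (27.9%) to B and 2061 (52.4%) to C, against 16.6%, 35.1% and 48.3% of all transcripts. The clusters thus held a smaller share of series B transcripts than the table as a whole. Series B made up 38.8% of chains of 1, 39.2% of chains of 2 to 4 and 31.9% of chains of 5 to 14. The shares and medians by chain size given above were not split by series.

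Within the clusters the median log2 ratio was -0.66 in series A, -0.01 in series B and -1.58 in series C, against -0.56, 0.06 and -1.64 over all transcripts. Past 2-fold in favour of WRR were 8 members of series A (1.03%), 190 of series B (18.2%) and 2 of series C (0.098%), where all transcripts of each series had 5.15%, 23.6% and 0.764%. Past 2-fold in favour of XH were 236 of A (30.5%), 130 of B (12.5%) and 1564 of C (76.9%), beside 26.6%, 15.9% and 76.1% of all transcripts. By the median and the 2-fold counts, the direction of the clusters as a whole thus did not hold in series B. Of the 200 members higher in WRR, 190 came from this series. By summed reads per total series B still lay below equality, with a ratio of 0.752 (0.743 to 0.762). The same ratio was 0.868 over all series B transcripts, and it was 0.596 in series A and 0.383 in series C of the clusters. Members of series A were longer, with a median of 1685 bases, against 858 in B and 796 in C.

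Summed over its transcripts, nearly every cluster had fewer reads per total in WRR than in XH. The ratio of summed reads per total, WRR over XH, ran from 0.189 to 2.03 over the 146 clusters with a median of 0.497, and it was 0.546 (0.542 to 0.549) over all clusters together. The same ratio was 0.801 over all listed transcripts and 0.841 over those outside the clusters. By chain size it was 0.785 for chains of 1, 1.01 for chains of 2 to 4 and 0.599 for chains of 5 to 14. The ratio of a cluster lay below 1 in 140 clusters and above 1 in 6. The exact 95% interval lay wholly below 1 in 139 clusters and wholly above 1 in 5, and it held 1 in the other two, on chromosome 21 at 4.24 Mb and on chromosome Z at 44.41 Mb. A 2-fold excess in WRR was reached by 1 cluster and one in XH by 74. Relative to 0.530, the split was 66 clusters above and 80 below. This value is the median of the ratios of all transcripts past the filter and not a ratio of summed reads. The side of equality on which a cluster lies thus depends on the scale for many of them.

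**Figure D1:**
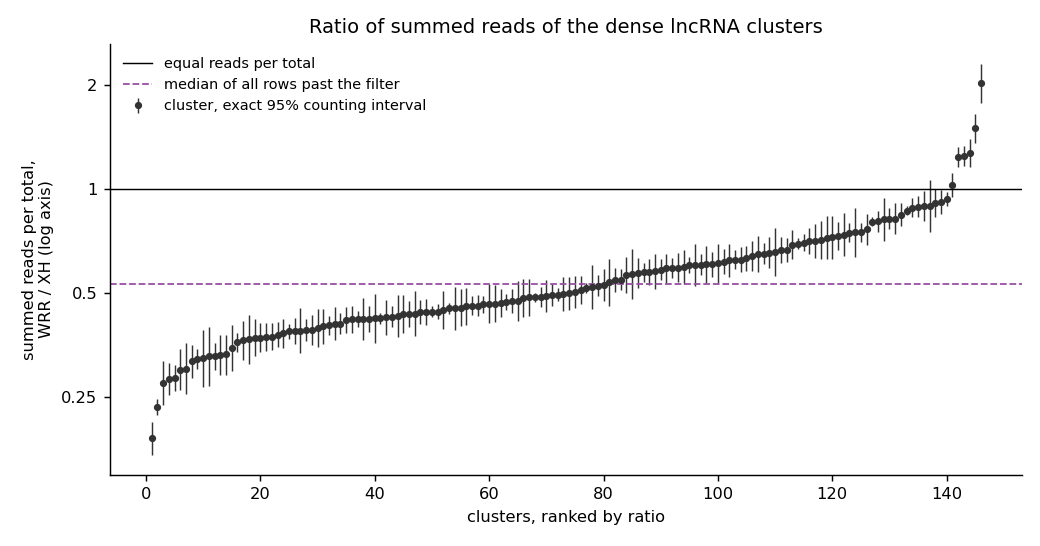
Ratio of summed reads per library total, WRR over XH (log axis), for each of the 146 clusters ranked by that ratio, with vertical lines for the exact 95% counting interval. The solid line marks equal reads per total, the dashed line the median of all transcripts past the filter (0.530). The points run from 0.189 to 2.03, and 6 of them lie above 1.

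The cluster most in favour of WRR lies on chromosome 1, 106567711 to 106601042, and holds 16 transcripts. It had 809 reads in WRR against 326 in XH, for a ratio of 2.03 (1.78 to 2.31). RPKM ran from 2.66 to 8.85 in WRR and from 0 to 6.45 in XH, and 8 of them reached a 2-fold excess in WRR, none in XH. The ratio was not the same along the cluster. The 8 transcripts of lower coordinates had 453 reads in WRR against 270 in XH, for a ratio of 1.37 (1.18 to 1.60), and the 8 of higher coordinates had 356 in WRR and 56 in XH, which makes a ratio of 5.19 (3.91 to 7.01).

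The levels went down along this cluster in the XH library and not in the WRR one. Spearman's rho of RPKM against position over the 16 transcripts was -0.035 in WRR and -0.918 in XH. At the low end, the transcripts at 106567711 and 106568247 had 7.47 and 5.76 RPKM in WRR and 6.45 and 5.91 RPKM in XH. At the high end, the transcripts at 106598519, 106599554 and 106600444 had 4.15, 7.45 and 5.13 RPKM in WRR and 0.182, 0.388 and 0.866 RPKM in XH. The last 4 transcripts hold 3 of the 6 highest log2 ratios of all members. Of these, the 535-base transcript with an interval of 9208 bases at 106588226 to 106597433 had 34 reads in WRR, and XH had a dash, taken as 0 reads. Set against a floor of 3 XH reads, the WRR level was 9.26-fold higher, with an exact interval from 7.13-fold. Of the 16 transcripts, 13 belong to series B.

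The 32-transcript cluster of chromosome 8, 3546540 to 3637884, followed with 1237 reads in WRR against 674 in XH, for a ratio of 1.50 (1.36 to 1.65). RPKM ran from 1.50 to 5.71 in WRR and from 0.655 to 5.06 in XH. A 2-fold excess in WRR was reached by 10 transcripts and one in XH by none. The largest difference was that of the 594-base transcript at 3620166 to 3620759, with 5.71 RPKM in WRR against 0.655 RPKM in XH. The 21 series B transcripts had a median log2 ratio of 0.94, the 8 of series A -0.05 and the 3 of series C -0.67. Only the series B median thus lay above equality. All 3 medians lay above those of their series over all transcripts, 0.06 in B, -0.56 in A and -1.64 in C.

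The 22 transcripts of the chromosome 12 cluster at 2322993 to 2748956 had 1109 reads in WRR against 713 in XH, for a ratio of 1.27 (1.16 to 1.40). Its members went both ways, with 4 at least 2-fold higher in WRR, against 5 in XH. The top transcript, 487 bases at 2742654 to 2743140, had 16.7 RPKM in WRR against 3.46 RPKM in XH, giving a ratio of 4.84 (2.67 to 9.50). The very long gapped entries of this cluster had 7.38 and 10.7 RPKM in WRR and 5.74 and 8.56 RPKM in XH. The chromosome 5 cluster at 26909267 to 26964180, with 28 transcripts, had 2205 reads in WRR against 1448 in XH, for a ratio of 1.24 (1.16 to 1.33), and 8 members were at least 2-fold higher in WRR, against 3 in XH. Its longest member, 7003 bases at 26927189 to 26934191, held 21.6% of the cluster's reads in WRR and 23.5% in XH, with a ratio of 1.14 (0.990 to 1.31).

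The chromosome 20 cluster at 13347535 to 13396525 was unlike the others with a ratio above 1. Its 26 transcripts had 2185 reads in WRR against 1439 in XH, for a ratio of 1.24 (1.16 to 1.33), and 21 of the 26 were above equality. Its interquartile range of log2 ratios, 0.38, was the smallest of all 146 clusters. Of its members 17 belong to series C, and these had a median log2 ratio of 0.32, where series C in all clusters had -1.58. RPKM ran from 0.840 to 13.9 in WRR and from 0.206 to 8.53 in XH, with medians of 6.06 in WRR and 5.13 in XH. After centring each series on its median over all transcripts, this cluster had the highest median of all, 1.77, ahead of the chromosome 1 cluster at 106.57 Mb with 1.44. It is the single cluster of chromosome 20.

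**Figure D2:**
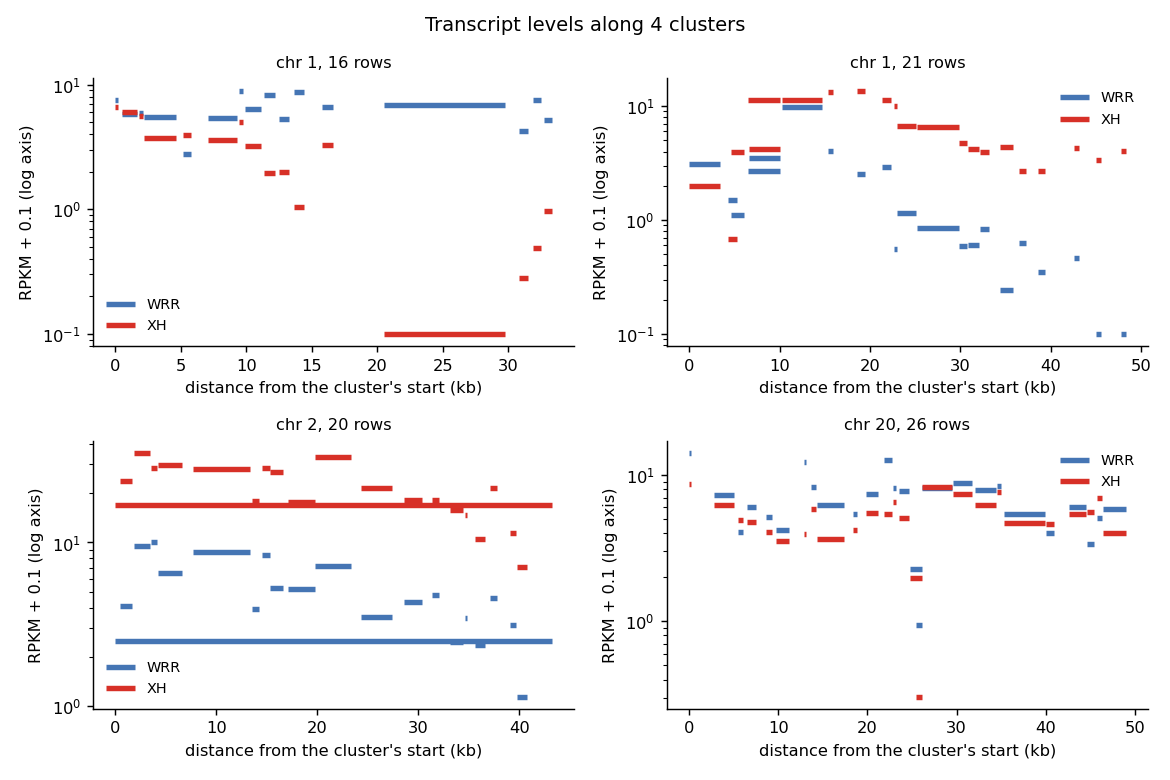
RPKM plus 0.1 (log axis) of each transcript in WRR (blue) and XH (red), drawn over its interval as distance in kb from the start of the cluster, for 4 clusters. These are the chromosome 1 clusters at 106.57 Mb (16 transcripts) and 94.44 Mb (21), the chromosome 2 cluster at 117.75 Mb (20) and the chromosome 20 cluster at 13.35 Mb (26). The libraries part along both chromosome 1 clusters, keep a similar distance on chromosome 2 and stay close on chromosome 20.

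At the other end, the 22 transcripts of the chromosome 10 cluster at 10414443 to 10447567 had 391 reads in WRR against 1689 in XH, for a ratio of 0.189 (0.169 to 0.211), or 5.29-fold higher in XH. RPKM ran from 1.27 to 4.95 in WRR and from 0.149 to 23.8 in XH. A 2-fold excess in XH was reached by 19 of the 22. The top transcript, 1481 bases at 10414443 to 10415923, had 2.79 RPKM in WRR against 23.8 RPKM in XH, giving a ratio of 0.117 (0.0815 to 0.164). The lower and the higher coordinates of the cluster had ratios of 0.189 and 0.190. The 3 transcripts above equality all belong to series B, and one of them, 868 bases at 10446700 to 10447567, had 2.81 RPKM in WRR against 0.149 RPKM in XH, among the 6 highest log2 ratios of all members.

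The chromosome 2 cluster at 117754903 to 117798160 had the smallest standard deviation of log2 ratios of all clusters, 0.36, though not the smallest interquartile range. Its 20 transcripts had 1751 reads in WRR against 6123 in XH, for a ratio of 0.234 (0.221 to 0.246), or 4.28-fold higher in XH (4.06 to 4.52). RPKM ran from 1.04 to 9.91 in WRR and from 7.01 to 35.0 in XH, so that the lowest XH value exceeded most of the WRR values. All 20 were at least 2-fold higher in XH, the single cluster of which this holds, and log2 ratios ran from -2.77 to -1.51. The series differed little here, with medians of -2.39 in A (8 transcripts), -1.87 in B (3) and -1.93 in C (9). The levels of the transcripts followed each other in the libraries, with Spearman's rho of 0.898 over the 20, the highest of all clusters, and one 3288-base gapped member spans the whole cluster.

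The other clusters of lowest ratio were mostly of series C. The 22 transcripts of chromosome 10 at 13158265 to 13202933 had 244 reads in WRR against 727 in XH, for a ratio of 0.274 (0.236 to 0.317), and 20 were past 2-fold in favour of XH. The 25 transcripts of chromosome 1 at 132300261 to 132345911 had 465 reads in WRR against 1349 in XH, for a ratio of 0.282 (0.253 to 0.313). The 51 transcripts of chromosome 2 at 29247321 to 29340151, all of series C, had 744 reads in WRR against 2146 in XH, for a ratio of 0.283 (0.260 to 0.308). In this last cluster all 51 log2 ratios were below 0 and 47 transcripts were at least 2-fold higher in XH. RPKM ran there from 0 to 3.57 in WRR, with a median of 1.21, and from 2.32 to 10.5 in XH, with a median of 4.75.

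The largest cluster by transcripts, 116 on chromosome 19 at 1455680 to 1723283, was close to equality. It had 9642 reads in WRR against 9091 in XH, for a ratio of 0.866 (0.842 to 0.892). Of the 109 transcripts past the filter, 61 lay above equality and 48 below, 21 were past 2-fold in favour of WRR and 13 in favour of XH, and the median log2 ratio was 0.05. RPKM ran from 0 to 12.6 in WRR (median 3.26) and from 0 to 18.2 in XH (median 2.81). The top transcript, 10207 bases at 1646322 to 1656528, had 12.6 RPKM in WRR against 13.4 RPKM in XH, giving a ratio of 0.934 (0.860 to 1.02), and held 12.5% of the cluster's reads in WRR and 11.6% in XH. Series C made up only 17 of the 109, with a median of -1.35, while the 58 of series B had 0.46 and the 34 of series A -0.01.

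The other clusters with the most transcripts were lower in WRR. The 94 transcripts of chromosome 1 at 82037250 to 82142100 had 5465 reads in WRR against 8646 in XH, for a ratio of 0.516 (0.499 to 0.534), with 92 below equality and none past 2-fold in favour of WRR. Their median was 9.09 RPKM in WRR against 19.3 RPKM in XH, well above that of members as a whole. The 86 transcripts of chromosome 10 at 4186538 to 4380029 had 4806 reads in WRR against 9315 in XH, for a ratio of 0.422, with 77 of 81 past the filter below equality. The top transcript there, 1197 bases at 4230287 to 4231483, did not share this direction, with 10.4 RPKM in WRR against 10.5 RPKM in XH, giving a ratio of 0.985 (0.746 to 1.30).

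Further clusters of many transcripts gave the same picture with more spread. The 79 transcripts of chromosome 1 at 65036333 to 65178994 had 1903 reads in WRR against 3704 in XH, for a ratio of 0.420 (0.397 to 0.444). The 65 of chromosome 2 at 37449080 to 37563592 had 1504 reads in WRR and 2679 in XH, which makes a ratio of 0.459 (0.430 to 0.489). The 64 of chromosome 1 at 55301556 to 55392630 had 1350 reads in WRR and 1828 in XH, which makes a ratio of 0.603 (0.562 to 0.648). In each of these clusters series B lay above series C. At 65.04 Mb the medians were -0.36 in the 15 of series B and -1.70 in the 40 of series C. At 37.45 Mb they were 0.03 in 11 and -1.99 in 32, and at 55.30 Mb 0.34 in 21 and -1.35 in 36.

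By reads rather than transcripts, the chromosome 4 cluster at 60024135 to 60099305 stood among the largest, with most of its reads in a single member. It had 6930 reads in WRR against 11668 in XH, for a ratio of 0.485. The longest transcript of the whole table, 25111 bases at 60074196 to 60099305, held 69.5% of these reads in WRR and 64.3% in XH, with 20.3 RPKM in WRR against 38.7 RPKM in XH. Without it the ratio was 0.415. All 31 members lay below equality, and 29 of them belong to series C. In the chromosome 7 cluster at 3352695 to 3516391, 41 of 55 members belong to series A. It had 8751 reads in WRR against 8898 in XH, for a ratio of 0.803 (0.780 to 0.828). Its longest member, 23581 bases at 3482955 to 3506535, had 1950 reads in WRR against 1828 in XH and a ratio of 0.872 (0.817 to 0.929).

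The transcript with the most reads in a cluster held a median of 17.6% of them in WRR and 16.0% in XH. It held at least 25% in 31 clusters in WRR and in 28 in XH, and at least 50% in 4 clusters in WRR and in 3 in XH. The transcript of highest RPKM, often a shorter one, held a median of 7.63% in WRR and 6.75% in XH.

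**Figure D3:**
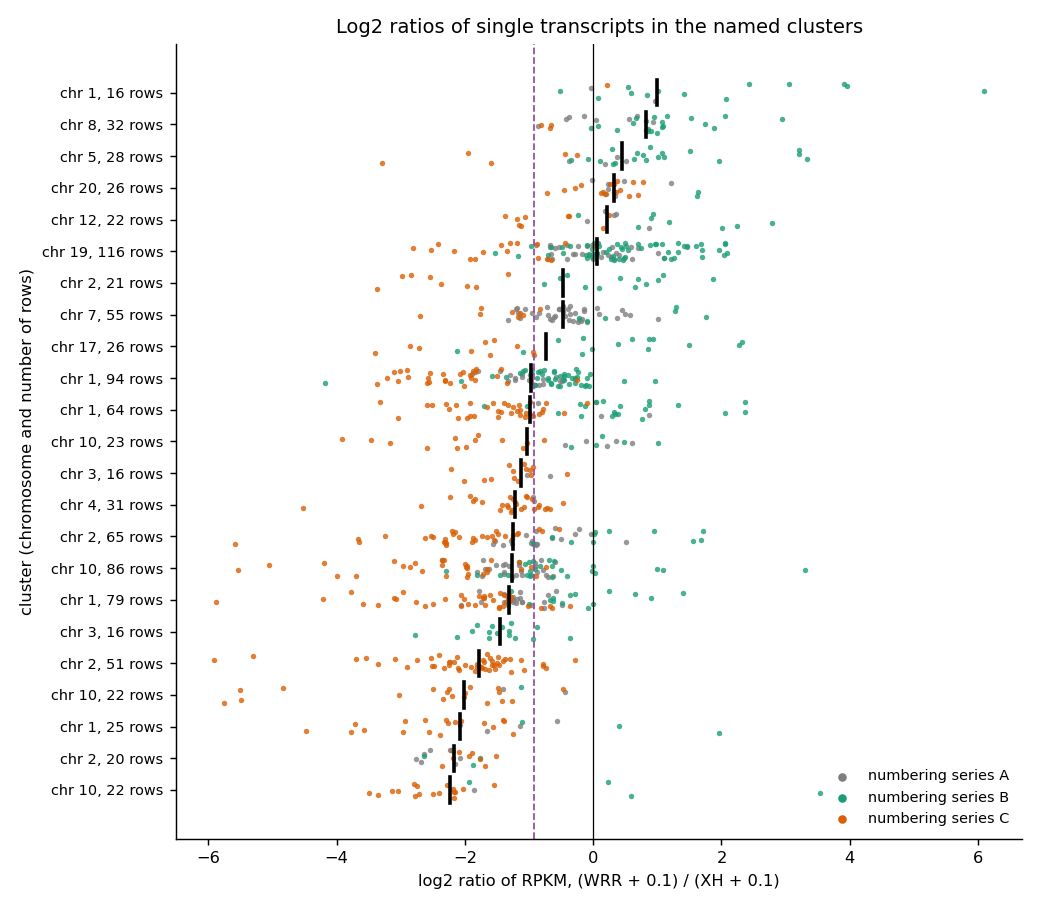
Log2 ratio of RPKM, (WRR + 0.1) / (XH + 0.1), of every member past the filter in the 23 clusters chosen by size, ratio, reads or spread, ordered by their median (black bars), with points coloured by numbering series (A grey, B green, C orange) and spread up and down only to separate them. The solid line marks equality and the dashed line the median of all transcripts (-0.92). In most clusters series C points lie left of series B points, and in the chromosome 20 cluster the median of series C lies above equality (0.32).

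Members of the same cluster agreed only in part. Of the 3852 members past the filter, 84.3% lay on the same side of equality as the median of their cluster, where 140 of the 146 medians lay below equality. Over all transcripts past the filter the upper quartile of log2 ratios was -0.043, so most transcripts lay below equality in any case. A member also counts toward the median it is set against. In 20 clusters every member past the filter lay below equality, and in none did every member lie above it. In 81 clusters there were members at least 2-fold apart in both directions. The standard deviation of log2 ratios within a cluster had a median of 1.08, while the counting error of a single log2 ratio had a median of 0.41. Of the 3567 members with at least 20 reads in both libraries together, 1359 (38.1%) had an exact 95% interval that excluded the ratio of the rest of their cluster. Neither this share nor the standard deviation was centred by series or set beside shorter chains.

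Of the spread in log2 ratios over all members, 22.3% of the sum of squares lay between clusters. Levels were more alike than ratios, with 42.3% of the sum of squares of the mean log2 level between clusters. The spread within a cluster was least on chromosome 20 at 13.35 Mb, then on chromosome 3 at 103.39 Mb and at 96.80 Mb. The 16 transcripts at 103393760 to 103446123 had 4125 reads in WRR against 7482 in XH, for a ratio of 0.450 (0.434 to 0.468), an interquartile range of 0.40, and all 16 log2 ratios below 0. The 16 at 96803118 to 96838743 had 1431 reads in WRR against 3256 in XH, for a ratio of 0.359 (0.337 to 0.382), and an interquartile range of 0.40.

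The last of these went against its series. All 16 of its transcripts belong to series B, whose members in the clusters had a median log2 ratio of -0.01, yet its own median was -1.46 and 13 of its transcripts were past 2-fold in favour of XH. RPKM ran there from 2.19 to 7.58 in WRR and from 4.88 to 24.1 in XH. The 9662-base transcript at 96829082 to 96838743 held the most reads, with 7.58 RPKM in WRR against 20.4 RPKM in XH.

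The spread was largest on chromosome 2 at 139.34 Mb, with an interquartile range of 2.72, then on chromosome 17 at 1.14 Mb (2.30) and chromosome 10 at 1.34 Mb (2.15). In these clusters the summed reads hid members that went opposite ways. On chromosome 2, 139337466 to 139461566, there were 398 reads in WRR against 398 in XH over 21 transcripts, for a ratio of 0.817 (0.709 to 0.941), where 3 members were past 2-fold in favour of WRR and 8 in favour of XH. The 12 of series B had a median of 0.53 and the 8 of series C -2.46. On chromosome 17 the medians were 0.50 in the 14 of series B and -1.65 in the 10 of series C. On chromosome 10 they were 0.21 in the 5 of series A, 0.14 in the 5 of B and -1.99 in the 13 of C.

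The gap between the series was seen inside nearly every cluster that could show it. Of the 91 clusters with at least 3 transcripts each of series B and C, series B had the higher median log2 ratio in 90, by a median of 1.83. Series A lay above C in 77 of 80 clusters, by a median of 1.02, and series B above A in 56 of 62, by 0.72. In the 60 clusters with at least 3 of each, the order was B, A, C in 54, and the medians of the 3 series lay 0.33 to 3.03 apart, with a median of 1.85. The exception among the 91 was the 18-transcript cluster of chromosome 2 at 76.48 Mb, with medians of -1.33 in A, -1.58 in B and -1.26 in C.

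All 3 medians lay below -1 in 4 of the 60 clusters. These were chromosome 2 at 76.48 Mb (ratio of summed reads 0.386), chromosome 2 at 117.75 Mb (0.234), chromosome 1 at 92.33 Mb (0.373) and chromosome 3 at 64.03 Mb (0.322). In these clusters each series on its own lay more than 2-fold in favour of XH on the scale of the library totals. The median over all transcripts was itself -0.92 on that scale, and each of the 4 had a series within 2-fold of it. Series B at 76.48 and 117.75 Mb and series A at 92.33 Mb had only 3 transcripts each. In 35 of the 60, by contrast, series B lay above 0 and series C below 0 within the same cluster. Over all 146 clusters, those with a larger share of series C had lower medians, with Pearson's r of -0.57 and Spearman's rho of -0.61, given as a description over clusters that share both libraries.

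**Figure D4:**
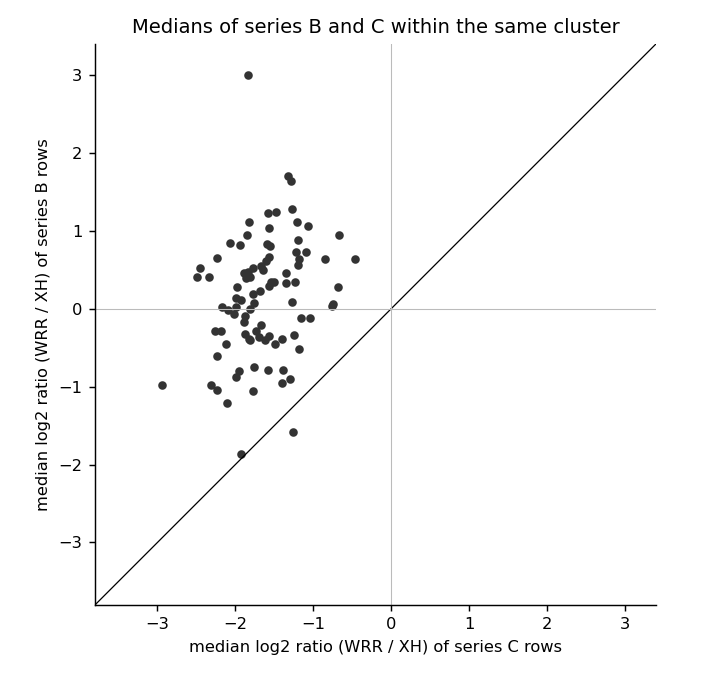
Median log2 ratio (WRR over XH) of series B transcripts against that of series C transcripts in the same cluster, for the 91 clusters with at least 3 of each. The diagonal marks equal medians and grey lines mark equality of the libraries. In 90 clusters the point lies above the diagonal.

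Successive transcripts were alike only in part, within and between series. Over 3706 pairs of successive members past the filter, Pearson's r of log2 ratios was 0.23 and Spearman's rho 0.27. The series differ in their medians, which by itself raises r in pairs of the same series and lowers it in mixed pairs, so each series was also centred on its median over all transcripts. Pearson's r then was 0.29 over all pairs, 0.37 over the 2118 pairs of the same series and 0.17 over the 1588 pairs of different series. Without centring, the same pairs gave 0.57 and -0.18. Within single series r was 0.52 in A (269 pairs), 0.61 in B (522) and 0.26 in C (1327). Pairs share both libraries and a place on the genome, so these values are descriptions.

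Shorter chains had similar or higher values. After centring, r in chains of 5 to 14 transcripts was 0.31 over all pairs, 0.41 within a series and 0.17 between series, and in chains of 2 to 4 it was 0.39, 0.46 and 0.28. Pairs were also sorted by the distance from the farthest end reached so far in the chain to the start of the second transcript. In the clusters the centred r was 0.30 under 100 bases and 0.31 from 100 to under 300 bases. It was 0.32 from 300 to under 1000 bases and 0.36 from 1000 bases on. In chains of 2 to 4 it was 0.55 under 100 bases and 0.29 from 1000 bases on, and in chains of 5 to 14 it was 0.45 and 0.27. In 490 pairs of the clusters the second started before that farthest end, and the 2 transcripts need not overlap each other. Among these pairs the centred r was 0.12, and 22.4% were of the same series. The file gives no strand, so reads of overlapping and antisense transcripts cannot be told apart here.

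**Figure D5:**
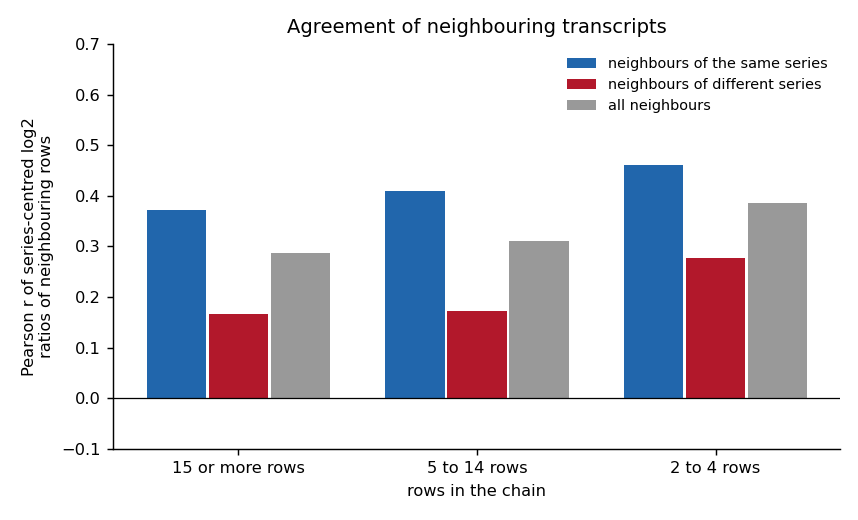
Pearson's r of the log2 ratios of successive transcripts, each numbering series centred on its median over all transcripts, in clusters of 15 or more, in chains of 5 to 14 and in chains of 2 to 4, for pairs of the same series (blue), of different series (red) and all pairs (grey). In the clusters the bars stand at 0.37, 0.17 and 0.29, and the shorter chains give the same order.

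The parts of a cluster tended to have similar ratios, with many exceptions. Each cluster was split in the middle of its row order into a part of lower and a part of higher coordinates. The log2 ratios of summed reads of the 2 parts had a Pearson's r of 0.63 over the 146 clusters and a Spearman's rho of 0.64, and with medians of series-centred ratios r was 0.56. The parts differed by a median of 0.27 on the log2 scale. In 54 of the 146 clusters the exact 95% intervals of the 2 parts did not overlap. The parts lay at least 2-fold apart in 10 clusters and on opposite sides of equality in 9.

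The largest difference between the parts was that of the chromosome 1 cluster at 94438096 to 94486409, described here because of that difference. Its 21 transcripts had 732 reads in WRR against 1427 in XH, for a ratio of 0.419 (0.383 to 0.458). The 10 of lower coordinates had 651 reads in WRR against 854 in XH, for a ratio of 0.623 (0.562 to 0.690), and the 11 of higher coordinates had 81 in WRR and 573 in XH, which makes a ratio of 0.115 (0.0904 to 0.146). Here it was the WRR level that went down with position, with Spearman's rho of -0.836, against -0.194 in XH. The 4379-base transcript (94448418 to 94452796) had 9.72 RPKM in WRR against 11.2 RPKM in XH. The last pair, at 94483052 and 94485821, had dashes in WRR and 3.25 and 3.96 RPKM in XH. All 12 transcripts from 94460804 on belong to series C, while the 9 before it are mostly of series A and B, so position and series cannot be told apart in this cluster.

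In the chromosome 2 cluster at 107.01 Mb, 1 transcript held most of the XH reads of its part. There the lower part of 13 transcripts had a ratio of 0.742 (0.631 to 0.871) and the higher part of 14 had 0.228 (0.203 to 0.256). The 2969-base series A transcript at 107043664 to 107046632 had 99 reads (3.53 RPKM) in WRR, while XH had 944 (41.2 RPKM), which gives 0.0857 as the ratio. Its neighbours at 107041344 and 107046693 had 4.29 and 2.82 RPKM in WRR and 1.75 and 5.52 RPKM in XH; neither was as far apart between the libraries.

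Levels that go up or down along a cluster were shared by the libraries in some places. Spearman's rho of RPKM against position was at least 0.5 in 8 clusters in WRR and in 16 in XH. It was at most -0.5 in 11 clusters in WRR and in 17 in XH. The levels of a cluster's transcripts also followed each other between the libraries, with a median rho of 0.39 over clusters. Position rho was beyond 0.5 in size in both libraries in 12 clusters, with the same sign in all 12. One of them was the 16-transcript cluster of chromosome 7 at 35.61 Mb, with rho of -0.806 in WRR and -0.979 in XH. Its first transcript, 934 bases at 35609261 to 35610194, had 40.3 RPKM in WRR against 29.4 RPKM in XH, giving a ratio of 1.37 (1.15 to 1.63), while the cluster's own ratio was 0.888. On chromosome 5 at 42.31 Mb the levels went up, with rho of 0.772 in WRR and 0.804 in XH. On chromosome 1 at 178.44 Mb they went down, with -0.607 in WRR and -0.728 in XH.

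A dash in 1 library, taken as 0 reads, was found for 85 members in WRR (2.16%) and 41 in XH (1.04%), beside 2.47% of all transcripts in WRR and 1.35% in XH. Of the 85, 75 belong to series C, and of the 41, 36 belong to series B. The table as a whole is alike, with 504 of 544 WRR dashes in C and 254 of 296 XH dashes in B. The 85 had a median of 11 reads in XH and at most 40, and the 41 had a median of 2 reads in WRR and at most 34. The member with the most reads against a WRR dash, 531 bases at chromosome 1, 55423421 to 55423951, had 40 XH reads (9.76 RPKM) along 99.8% of it. Set against the floor of 3 WRR reads, the level in XH was 16.3-fold higher, with an exact interval from 12.7-fold. The next, 1217 bases at chromosome 2, 99227488 to 99228704, had 39 reads in XH. It was 15.9-fold higher there against the floor, with an exact interval from 12.3-fold. Against an XH dash, after the chromosome 1 transcript of the 106.57 Mb cluster, came a 2209-base transcript at chromosome 5, 26945804 to 26948012. It had 19 reads (0.911 RPKM) in WRR and was 5.17-fold higher there against the floor, with an exact interval from 3.81-fold.

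The extreme ratios rest on few reads. Among members with at least 20 reads in both libraries together, the 6 highest log2 ratios ran from 3.54 to 6.09, all of series B, and the 6 lowest from -6.74 to -5.88, all of series C and all with a dash in WRR. The 652-base transcript on chromosome 21 (4246261 to 4246912) had 31 reads in WRR against 1 in XH, for a ratio of 25.3 (4.22 to 1032). The 244-base transcript on chromosome 1 (40739337 to 40739580) had 33 reads in WRR against 2 in XH, for a ratio of 13.5 (3.45 to 116), in a cluster whose ratio was 0.463. The lowest log2 ratio, -6.74, was that of a 244-base transcript at chromosome 3, 103313703 to 103313946, with 20 reads in XH. It was 8.16-fold higher there against the floor of 3 WRR reads, with an exact interval from 6.04-fold. Equally low in reads was a 246-base transcript at chromosome 4, 39886741 to 39886986, with a dash in WRR and 20 reads in XH.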

How the data were processed

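Breast muscle RNA of WRR and XH hens was measured in 1 pooled library per strain. The submitters' processing notes name galGal4, TopHat2 2.0.8 and Cufflinks 2.0.2 without saying what each was used for. The sources used here do not give how transcripts were assembled, numbered or called non-coding. Per the file headers, the authors' counts hold the uniquely mapped reads of each transcript. The deposited RPKM is scaled to the total in each library's header, and the formula gave all 21449 listed WRR and 21697 listed XH values within 0.001%. The deposited coverage is a percent of transcript length, per the file headers. A dash was taken as 0 reads. Starts were counted from 0 and are printed counted from 1.

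From these values, chains, sums, log2 ratios with a pseudocount of 0.1 RPKM and exact Clopper-Pearson 95% intervals were computed with Python 3.11.15, numpy 2.4.6, pandas 2.3.3 and scipy 1.17.1, and TMM factors with edgeR 4.0.16 in R 4.3.3, which was used for scaling only. The scripts were tested on simulated data. Named clusters were the 6 with most transcripts, the 5 highest and 5 lowest ratios, the 4 with most reads, and the 3 smallest and 3 largest interquartile ranges. Named members were the top RPKM of a cluster, the 6 highest and 6 lowest log2 ratios and the 2 dashes of most reads per direction. The clusters and members described for their position along a cluster, or among the 8 of highest RPKM, were chosen after their values were seen. The members, series and lists were chosen with earlier results of these data known. Alternatives changed the pseudocount, filter, chaining, cluster size, overlap and scaling. Lists of muscle, growth and other cell type genes were not run, because no gene table of this build was used. Sequences are not printed for the same reason. Transcripts are not independent replicates.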

Additional observations from a re-analysis of the deposited data

How the results depend on the processing

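No paired analysis was possible because there is 1 pooled library per strain, so leaving one out was impossible too. The settings by numbering series, by neighbours of a series, with gapped transcripts left out and of the member count were chosen after seeing the data. The median log2 ratio of all transcripts was -0.92 as reported, -0.60 scaled to the listed reads, -0.062 with TMM and 0 when centred by construction. In the order centred, listed reads and TMM, members at least 2-fold higher in WRR, 200 as reported, numbered 611, 310 and 568, the members' median was -0.091, -0.69 and -0.16, clusters above equality numbered 66, 20 and 63, and the ratio over all clusters was 1.03, 0.682 and 0.999. Members higher in XH, 1930 as reported, numbered 765 centred and 845 with TMM. Clusters at least 2-fold higher in XH, 74 as reported, numbered 2 centred, 31 by listed reads and 2 with TMM. Those at least 2-fold higher in WRR, 1 as reported, numbered 5, 1 and 5. Without the transcript of most reads in each cluster the ratio over all clusters was 0.539. A pseudocount of 1 RPKM gave 101 members higher in WRR and a median of -0.80. Chaining at 2000 bases left 2132 members in 86 clusters, 111 higher in WRR and 1030 in XH, and keeping the longest of overlapping transcripts left 123 higher in WRR. Series A, B and C alone gave medians of -0.66, -0.011 and -1.58, with 8 (A) and 2 (C) higher in WRR and 236 (A) and 130 (B) in XH. Neighbour r, 0.23 as reported, was 0.30 and 0.18 with pseudocounts of 1 and 0.01, 0.31 from 20 reads on, 0.18 at 2000 bases, 0.33 without overlaps, 0.29 series centred, 0.57 within and -0.18 between series without centring, and 0.37 within and 0.17 between with it. The share between clusters, 22.3%, was in turn 27.0%, 18.2%, 26.8%, 20.3% and 28.4%, then 21.1% without a filter and 21.1% without gapped transcripts. Of these, r turned negative between series without centring and the ratio passed 1 when centred. The cause was not tested. Low depth limits single members, with a median counting error of 0.41 on the log2 scale.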

Other observations

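With each numbering series centred on its own median over all transcripts, the clusters at the ends were partly other ones than by summed reads. Lowest were the chromosome 2 cluster at 117.75 Mb with a centred median of -1.55, the chromosome 3 cluster at 96.80 Mb with -1.52 and the chromosome 1 cluster at 94.44 Mb with -1.31. Highest, after the chromosome 20 cluster at 13.35 Mb and the chromosome 1 cluster at 106.57 Mb, were the chromosome 7 cluster at 35.61 Mb with 1.04 and the chromosome 1 cluster at 62.32 Mb with 1.02. Both of these have a ratio of summed reads below 1, 0.888 and 0.916, and consist mostly of series C transcripts (12 of 16 and 11 of 17). The chromosome 10 cluster at 10.41 Mb, lowest by summed reads, was not among the 6 lowest on this scale.

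Of the 11 pairs of adjacent clusters, 7 had overlapping intervals of their ratios. On chromosome 3 the clusters of 16 and 17 transcripts that begin at 103393760 and 103454282, 8.16 kb apart, had ratios of 0.450 (0.434 to 0.468) and 0.421 (0.386 to 0.459). On chromosome 5 the neighbours between 34364747 and 34483117 had 0.563, 0.602 and 0.536, with overlapping intervals. On chromosome 15 the clusters that begin at 1638548 and 1865200 went apart, with 0.936 (0.894 to 0.980) and 0.698 (0.659 to 0.739), as did those of chromosome 3 at 64029161 and 64114735, with 0.322 (0.301 to 0.344) and 0.466 (0.411 to 0.527). The pair of chromosome 3 at 81053389 and 81134886 also went apart, with 0.584 (0.545 to 0.626) and 0.695 (0.668 to 0.722), as did that of chromosome 10 at 4385031 and 4433550, with 0.420 (0.366 to 0.482) and 0.748 (0.700 to 0.798). Facing parts of some of these pairs were closer. On chromosome 10 the lower part of the second cluster had 0.438 (0.387 to 0.495). On chromosome 15 the higher part of the first had 0.699 (0.645 to 0.758). For the pair at 81053389 the higher part of the first had 0.656 (0.603 to 0.713) and the lower part of the second 0.655 (0.621 to 0.691). These ratios were not split by series. By series-centred medians some clusters compared otherwise. On chromosome 3 the pair at 81053389 had 0.56 and 0.41, the reverse order, and that at 64029161 had -0.70 and -0.55. The chromosome 10 pair had -0.037 and -0.046, and the chromosome 15 pair 0.69 and 0.045. The chromosome 5 neighbours had -0.50, 0.069 and 0.40, and the chromosome 3 clusters at 103393760 and 103454282 had 0.39 and 0.53.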
